A study of Ogataea parapolymorpha with 2 samples.

Results

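RNA processing turns a nuclear transcript into a usable RNA. The transcript receives a cap, loses its introns in the spliceosome, is cut and given a poly(A) tail, and is later degraded, and further proteins trim and modify ribosomal and transfer RNA. The genes described here are those that the deposited count table places in category A alone of the clusters of orthologous groups (COG), the category named RNA processing and modification, and for which it lists a number from the non-supervised orthologous groups (NOG) and no COG number. There are 58 such genes among 5408 rows, of which 5325 are protein-coding genes and carried at least 1 read. The rule that picks them uses the annotation columns only, although it was set with earlier results of these data known. The tables attach no symbol, product or description to them, so each gene is given by its locus tag and NOG number, and the step of RNA processing in which it acts is not stated. For this reason the label could not be checked against single genes beyond the category itself. The 58 genes carry 57 different NOG numbers. NOG02325 is shared by HPODL_00557 and HPODL_02068, and no gene outside the 58 carries any of these numbers. The listed e-value of the assignment reached 8e-08 at its weakest and lay above 1e-20 for 7 of the 58.

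RNA came from Ogataea parapolymorpha, labelled Hansenula polymorpha, a methylotrophic yeast that tolerates heat. The strain was DL-1 with the genotype leu- in both groups, grown at 37 °C in YPD, a rich glucose medium, until an OD600 of 1.0. The caffeine-treated group was given 20 mM caffeine for 2 h, and the untreated group was harvested from the other part of that culture. Caffeine, a purine analogue, is a classical cell wall stressor in yeasts and also acts on the TOR kinase of Saccharomyces cerevisiae. The series is about signalling in the cell wall integrity pathway, and the pair of libraries shows the transcripts with and without the drug. Each group has 1 library, with 17789838 counted reads in the caffeine-treated and 19184978 in the untreated library. No difference below has a replicate check, no test between conditions was made, and time in culture cannot be told apart from caffeine because no untreated part kept for the same time is described. In such bulk samples, fewer cells with a transcript and less of it per cell cannot be told apart.

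Reads of the 58 genes made up 0.487% of the caffeine-treated library (exact Clopper-Pearson 95% interval 0.483 to 0.490%) and 0.388% of the untreated library (0.385 to 0.391%). These intervals cover counting error only, not differences between cultures. The shares are of plain library totals, which place every log2 fold 0.22 higher than the scaling used below, so part of their difference depends on scaling. Levels per gene length are given as the deposited RPKM, a read count corrected for gene length and library size. The 58 genes ranged from 4.39 to 528 RPKM in the caffeine-treated library, with a median of 52.1, and from 4.77 to 484 RPKM in the untreated library, with a median of 39.8. Over all genes compared the median level was 71.2 RPKM in the caffeine-treated and 59.8 RPKM in the untreated library. The median of the RNA processing genes thus lay below that of all genes compared in both libraries. In the caffeine-treated library 32 of the 58 lay under the median of all genes compared and 5 at or above their upper quartile. In the untreated library these were 37 and 3.

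**Figure D1:**
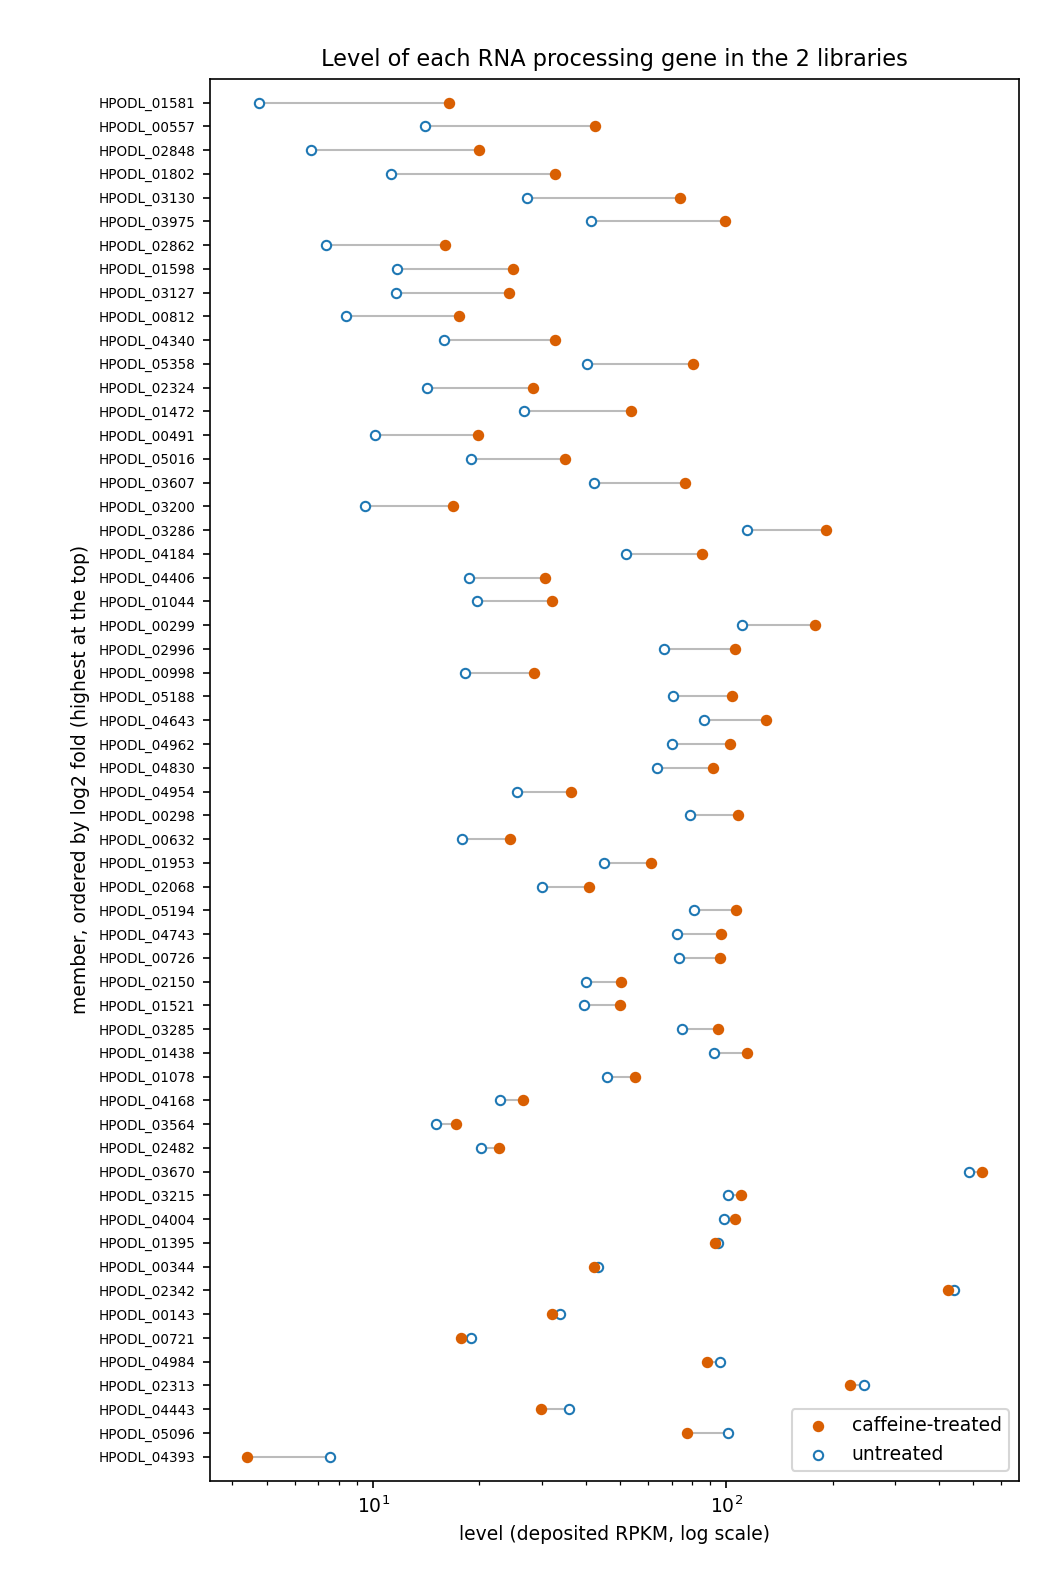
Deposited RPKM (log axis) of the 58 RNA processing genes in the caffeine-treated (filled) and untreated (open) library, 1 library each, ordered by TMM log2 fold. By RPKM, which is not TMM-scaled, 48 genes were higher and 10 lower in the caffeine-treated library, and 5 of the 48 have a TMM log2 fold below 0. With counts scaled by library totals, 82.8% of the 58 lay above 0, against 67.4% of all 5325 genes with a read.

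The main measure is the log2 fold, caffeine-treated over untreated, of counts scaled by the trimmed mean of M values (TMM). The interval after a fold is an exact 95% interval of the split of that gene's reads between the libraries. It covers counting error only, because reads copied by PCR are not independent molecules and cultures were not repeated. Genes with at least 10 CPM, a count scaled to a common library total, in either library were compared, which kept 4861 genes, among them 56 of the 58. HPODL_01598 and HPODL_05188 were not kept. Of the 56, 46 reached that level in both libraries, 9 in the caffeine-treated library alone and 1 in the untreated library alone. All 9 of the genes kept through the caffeine-treated library had a log2 fold above 0, as the filter favours, 7 of them at 1.5-fold or more and 1 at 2-fold or more. Counts over all 58 are therefore given beside those over the 56.

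The RNA processing genes lay mostly above 0 by moderate amounts, and few passed 2-fold. Of the 56 compared genes 41 (73.2%) had a log2 fold above 0, against 51.1% of all compared genes. Of them 17 (30.4%) stood higher by 1.5-fold or more after caffeine, against 16.5% of all compared genes, and 2 (3.57%) stood lower by as much, against 13.0%. The 2-fold line was passed upward by 6 genes (10.7%), against 7.12% of all compared genes, and downward by 1 gene (1.79%), against 5.27%. None reached 4-fold in either direction, which 1.38% of all compared genes did upward and 1.03% downward. With this scaling the share past 2-fold upward is near that of all genes. Over all 58 genes without a filter, 43 lay above 0, 18 stood 1.5-fold and 6 stood 2-fold higher or more, and 2 and 1 were that much lower, where the shares of all 5325 genes were 51.0%, 17.3%, 7.72%, 13.9% and 5.95%.

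The median log2 fold was 0.28 over the 56 genes, with quartiles at -0.03 and 0.69, and 0.01 over all compared genes, with quartiles at -0.33 and 0.39. The span between the quartiles was 0.72 for both, so the middle of the set was spread as widely as that of all genes, and its median stood higher by 0.26. Scaling by library totals adds 0.22 to every log2 fold, which moves all genes alike. Past 2-fold there were then 13 RNA processing genes higher (23.2%, against 11.6% of all compared genes) and 0 lower, so that the nearness of the shares past 2-fold upward was lost, and the share of higher genes among those past 2-fold was 100.0% in place of 85.7%, or 76.3% in place of 57.5% for all compared genes. Places among all genes do not depend on the scaling. Of the 56 genes 24 (42.9%) lay above the upper quartile of all log2 folds and 5 (8.93%) below the lower quartile. These places do depend on the filter. Among the 24 are the 7 genes at 1.5-fold or more that were kept only through the caffeine-treated library. Quartile places without the filter are not given, neither here nor for the lists below. When 5 CPM were added to both libraries before the ratio, 10 in place of 17 genes stood at 1.5-fold or more. The share of all compared genes past 1.5-fold with 5 CPM added is not given. Whether the set still exceeds all genes at that setting therefore cannot be told. Past 2-fold upward there were then 4 in place of 6 of the 56, and 244 in place of 346 of all 4861 compared genes.

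**Figure D2:**
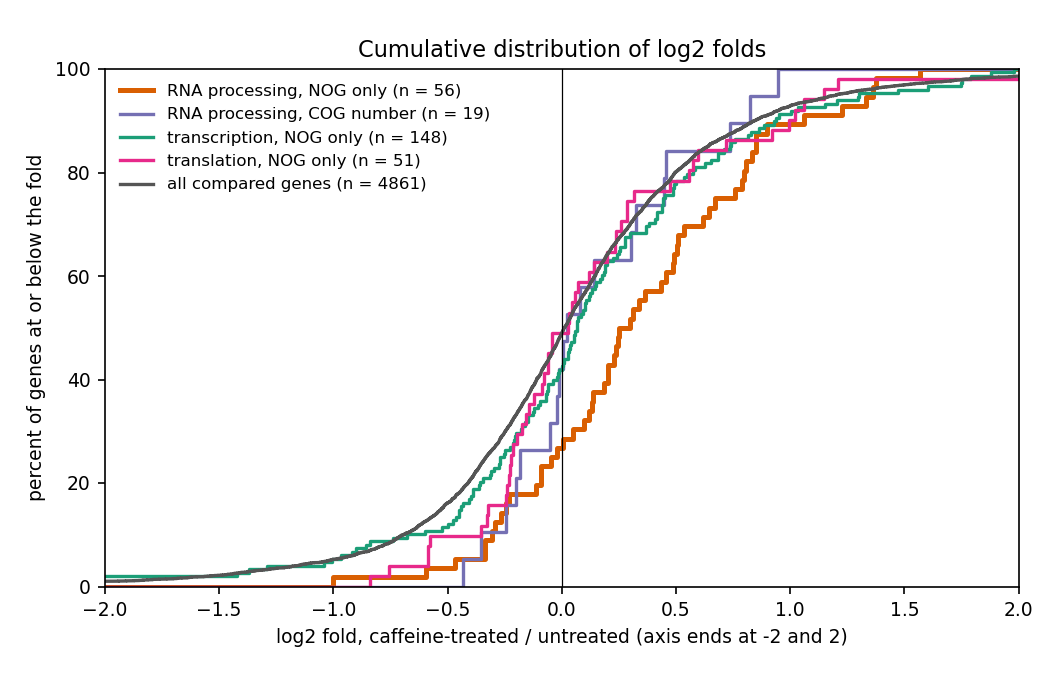
Percent of genes at or below each log2 fold (x axis, caffeine-treated over untreated, drawn to 2 log2 units on either side) for 56 RNA processing genes with only a NOG number, 19 with a COG number, the NOG-only genes of transcription (148) and translation (51), and all 4861 compared genes. The line of the NOG-only RNA processing genes crosses 50% at a log2 fold near 0.28 and that of all genes near 0.01.

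The 3 larger lists set beside them lay nearer to all genes. The 19 compared genes of category A that do carry a COG number had a median log2 fold of 0.02, with 3 past 1.5-fold upward and 0 downward. Genes with only a NOG number in the transcription category (K, 148 compared) had a median of 0.07, with 18.9% past 1.5-fold upward and 10.8% downward. Those in the translation category (J, 51 compared) had a median of 0.03, with 17.6% and 7.84%. Above the upper quartile of all log2 folds lay 26.3% of the first list, 29.7% of the second and 23.5% of the third. The 4 genes that carry letter A beside another letter lay farther up than the NOG-only genes, with a median of 0.61 and 3 of 4 above that upper quartile. These are descriptions of 2 libraries, and the differences between lists were not tested.

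The highest fold belonged to HPODL_01581 (NOG02003), a gene of 1062 bases with 259 reads in the caffeine-treated and 81 in the untreated library. Its level was 16.4 RPKM in the caffeine-treated against 4.77 RPKM in the untreated library, and its log2 fold was 1.57 (1.20 to 1.95), or 0.95 with 5 CPM added. It is among the least abundant of the 58 and was kept only through its caffeine-treated level. HPODL_00557 (NOG02325) had 1298 reads in the caffeine-treated and 463 in the untreated library, or 42.3 against 14.0 RPKM, and a log2 fold of 1.38 (1.22 to 1.53). The other gene with the same NOG number, HPODL_02068, had 970 reads in the caffeine-treated and 767 in the untreated library and a log2 fold of 0.23 (0.09 to 0.37). The intervals of these 2 genes do not overlap, so sharing a number did not go with sharing a fold. The files do not show whether their sequences are alike enough to have shared reads.

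A further 4 genes were past 2-fold upward. HPODL_02848 (NOG05734), among the longer genes at 2676 bases, had 891 reads in the caffeine-treated and 321 in the untreated library, 20.0 against 6.69 RPKM, and a log2 fold of 1.36 (1.18 to 1.55). HPODL_01802 (NOG04222) had 628 reads in the caffeine-treated and 231 in the untreated library, 32.7 against 11.2 RPKM, and a log2 fold of 1.33 (1.11 to 1.56). The values of HPODL_01581, HPODL_00557, HPODL_02848 and HPODL_01802 were at most 14.0 RPKM in the untreated library. HPODL_03130 (NOG37362) had 998 reads in the caffeine-treated and 395 in the untreated library, 74.1 against 27.3 RPKM, and a log2 fold of 1.23 (1.06 to 1.40). HPODL_03975 (NOG10665) had 854 reads in the caffeine-treated and 380 in the untreated library, 99.1 against 41.3 RPKM, and a log2 fold of 1.06 (0.88 to 1.24). It is the only one of the 6 whose interval reaches below 2-fold, and the only one whose mean level lies above the median of compared genes. With 5 CPM added to both libraries 4 of the 6 stayed past 2-fold, HPODL_01581 and HPODL_03975 being the exceptions.

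The genes directly beside these 6 on the genome went both ways. Of 12 flanking genes, 7 had a log2 fold above 0 and 10 (against 87.6% of all compared genes) lay within 2-fold, while 1 was past that upward and 1 downward. The higher one was HPODL_03974 beside HPODL_03975, at a log2 fold of 1.05 with 8439 reads in the caffeine-treated and 3774 in the untreated library. The lower one was HPODL_05364 beside HPODL_03130, at -1.44. Both neighbours of HPODL_02848 were higher by a smaller amount, HPODL_02847 at 0.71 and HPODL_02849 at 0.58. The strand column reads + for every row, so whether neighbours face each other is not known here. Among the 58 genes 3 pairs are direct neighbours, and in none were both past 1.5-fold. HPODL_00298 and HPODL_00299 stood at 0.25 and 0.49, HPODL_01078 and HPODL_05188 at 0.05 and 0.39, and HPODL_03285 and HPODL_03286 at 0.12 and 0.53.

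Below 2-fold lay a further group of genes. Of all compared genes, 16.5% were at least 1.5-fold and 7.12% at least 2-fold higher, against 30.4% and 10.7% of the 56. Of the 9 genes kept only through the caffeine-treated library, 7 were at least 1.5-fold and 1 at least 2-fold higher. The group between 1.5- and 2-fold higher held 11 of the 56. Its levels were 16.0 to 80.3 RPKM in the caffeine-treated and 7.38 to 42.1 RPKM in the untreated library. HPODL_02862 (NOG03638), nearest to 2-fold from inside this group, had 515 reads in the caffeine-treated and 256 in the untreated library and a log2 fold of 0.90 (0.68 to 1.12). HPODL_03127 (NOG01983) had 220 reads in the caffeine-treated and 113 in the untreated library and stood at 0.85 (0.52 to 1.19). HPODL_00812 (NOG180246) had 608 reads in the caffeine-treated and 313 in the untreated library and stood at 0.85 (0.65 to 1.05). HPODL_04340 (NOG200433) had 250 reads in the caffeine-treated and 130 in the untreated library and stood at 0.83 (0.52 to 1.15). The intervals of these 4 genes all reach past 2-fold, and with library totals all 4 passed it. At the lower end of the group HPODL_03200 stood at 0.62, just inside 1.5-fold, and HPODL_03286 at 0.53 just outside it. HPODL_03607, with 3045 reads in the caffeine-treated and 1803 in the untreated library, was the most deeply counted of the 11 and stood at 0.65 (0.56 to 0.73). HPODL_01598, which the filter removed, had 148 reads in the caffeine-treated and 74 in the untreated library and stood at 0.89 (0.48 to 1.31).

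**Figure D3:**
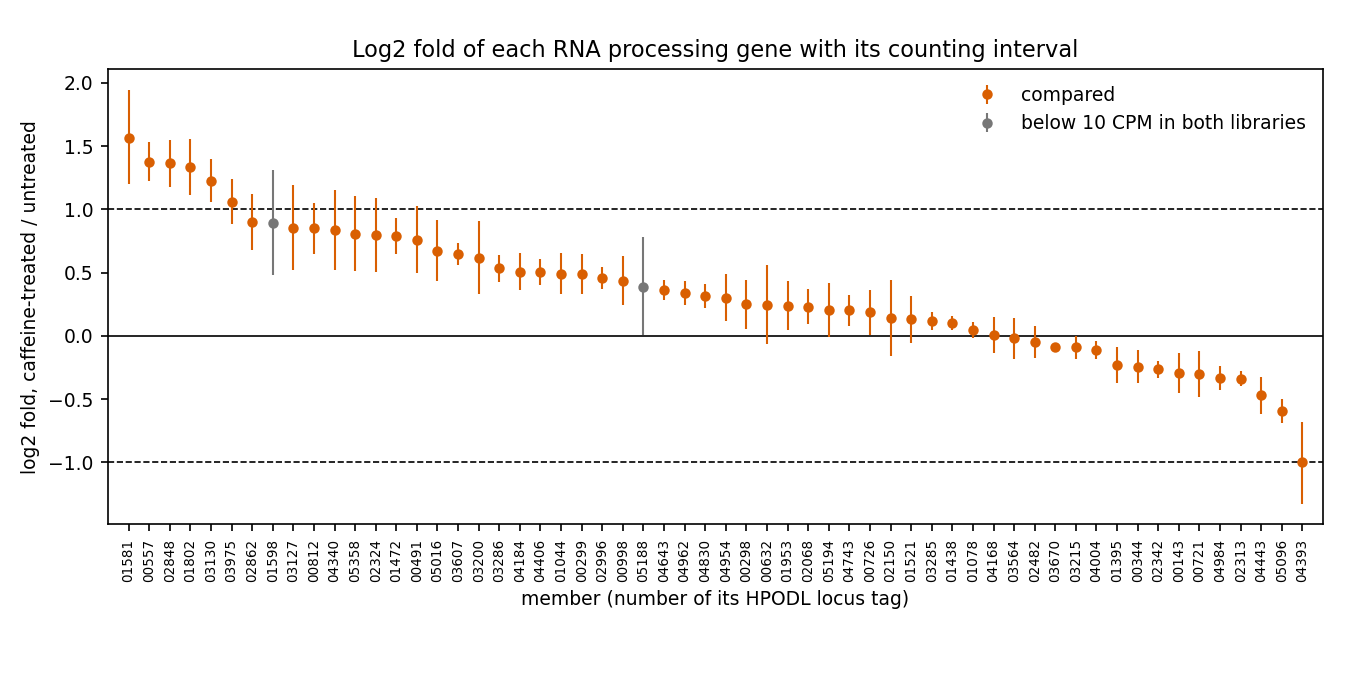
Log2 fold (caffeine-treated over untreated, TMM) of the 58 RNA processing genes with exact 95% intervals for counting error only. Dashed lines mark 2-fold, and grey points are the 2 genes below 10 CPM in both libraries. Of the 58 intervals 5 lie wholly past 2-fold higher, 0 wholly past 2-fold lower, and 8 hold 0. The same counts over all genes are not given, so these do not set the 58 apart from other genes.

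The only gene past 2-fold downward was HPODL_04393 (NOG83049), and its level was low in both libraries. It had 124 reads in the caffeine-treated and 230 in the untreated library, 4.39 against 7.57 RPKM, and a log2 fold of -1.00 (-1.33 to -0.68). That places it on the 2-fold line itself, with -0.78 when library totals were used and -0.65 with 5 CPM added. The genes on either side, HPODL_04392 and HPODL_04394, stood at -0.73 and -0.63, and 3 neighbouring genes were thus lower together. HPODL_05096 (NOG48479) had 1506 reads in the caffeine-treated and 2109 in the untreated library, 77.4 against 100.9 RPKM, and a log2 fold of -0.60 (-0.69 to -0.50), the second lowest of the 58. HPODL_04443 (NOG17223) followed with 680 reads in the caffeine-treated and 873 in the untreated library and -0.47 (-0.62 to -0.32).

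The remaining low genes differed little. HPODL_02313 (NOG18443) had 3937 reads in the caffeine-treated and 4613 in the untreated library and stood at -0.34 (-0.40 to -0.28). HPODL_04984 (NOG40899), with 1633 reads in the caffeine-treated and 1911 in the untreated library, stood at -0.34 (-0.43 to -0.24). HPODL_00721 (NOG114751) stood at -0.30 (-0.49 to -0.12), with 470 reads in the caffeine-treated and 538 in the untreated library. All 3 lay well inside 1.5-fold. HPODL_00143 (NOG00118), with 635 reads in the caffeine-treated and 722 in the untreated library, stood at -0.29 (-0.45 to -0.14). HPODL_00344 (NOG05364) had 916 reads in the caffeine-treated and 1006 in the untreated library and stood at -0.24 (-0.38 to -0.11). HPODL_01395 (NOG02746) had 786 reads in the caffeine-treated and 856 in the untreated library and stood at -0.23 (-0.37 to -0.09). HPODL_00143 overlaps another listed gene by 6 bases, the larger of the 2 overlaps found among the 58.

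None of the 6 most abundant genes of the set was past 1.5-fold. At or above the median level of 66.1 RPKM, 10.7% of all compared genes were that much higher and 15.5% lower. Of those genes 40.6% lay above 0. HPODL_03670 (NOG122583) had 17027 reads in the caffeine-treated and 16811 in the untreated library, 528 against 484 RPKM, and a log2 fold of -0.09 (-0.12 to -0.06), which became 0.13 with library totals. It alone supplied 19.7% (19.4 to 19.9%) of the set's reads in the caffeine-treated library and 22.6% (22.3 to 22.9%) in the untreated library. HPODL_02342 (NOG89451) had 423 RPKM in the caffeine-treated and 441 RPKM in the untreated library and a log2 fold of -0.27 (-0.33 to -0.20). HPODL_02313, described above, followed with 224 RPKM in the caffeine-treated and 244 RPKM in the untreated library. The 3 most abundant genes thus all lay below 0 with TMM and within 1.3-fold. The next were higher in the caffeine-treated library. HPODL_03286 (NOG30073) had 191 RPKM there and 115 RPKM in the untreated library, with a log2 fold of 0.53 (0.43 to 0.64). HPODL_00299 (NOG75524) had 178 RPKM in the caffeine-treated and 111 RPKM in the untreated library, with a log2 fold of 0.49 (0.33 to 0.64). HPODL_04643 (NOG01139) had 129 RPKM in the caffeine-treated and 86.6 RPKM in the untreated library, with a log2 fold of 0.36 (0.28 to 0.44). The 34 genes not chosen by the naming rule, some of which are described above, had log2 folds of -0.11 to 0.89, with 30 above 0 and 4 below. That split is largely set by the rule, which names the 10 lowest compared genes when only 15 of the 58 lay below 0. It is no sign of direction.

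Less abundant genes of the set tended to have higher folds, although the lowest fold also belonged to a gene of low level. Across the 56 genes the log2 fold correlated with log2 mean RPKM at a Pearson r of -0.32 and a Spearman rho of -0.38, and across all 4861 compared genes at -0.21 and -0.26. These correlations are over genes that share the same 2 libraries, are not independent replicates, and have the counts on both axes, so no p is given. Split at the median level of all compared genes, 66.1 RPKM as the mean of both libraries, 34 of the 56 lay below and 22 at or above it. Of the 34, 16 (47.1%) were at least 1.5-fold higher, against 22.4% of all compared genes below that level, and their median log2 fold was 0.50, against 0.15. Of the 22, 1 (4.55%) was at least 1.5-fold higher, against 10.7% of all compared genes at or above that level, and their median was 0.19, against -0.11. The median was above that of all genes in both parts, by more in the lower one, while the count past 1.5-fold upward was above only in the lower one. Of these 16 genes 7 were kept only through their caffeine-treated level, which the filter favours. Among genes with at least 10 CPM in both libraries, a filter chosen after the data were seen, 9 of 24 (37.5%) below that level were at least 1.5-fold higher, against 17.3% of all such genes. That filter also removes genes that differ strongly, and the part of level in the result was not tested further. Listed gene length, with a median of 1225.5 bases for the 58 and a range of 276 to 4341, showed a weaker relation, at a rho of -0.13 over the 56 genes.

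**Figure D4:**
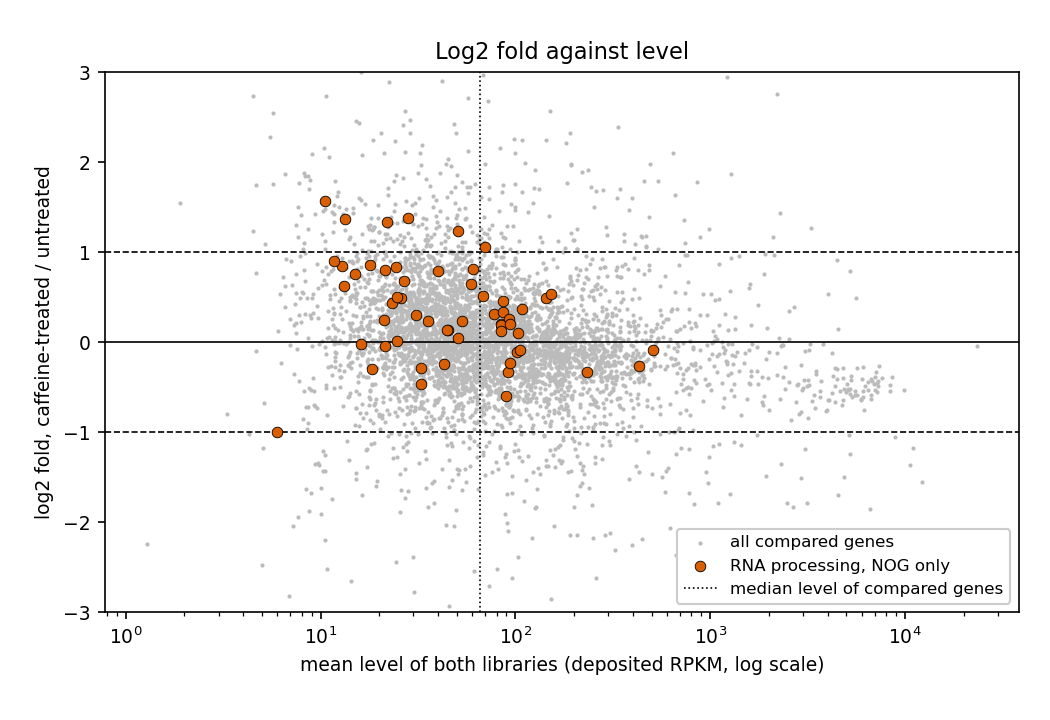
Log2 fold (caffeine-treated over untreated, TMM) against the mean deposited RPKM of both libraries (log axis) for 56 RNA processing genes and all 4861 compared genes, 36 of which lie beyond 3 log2 units and are not drawn. The dotted line is the median level of 66.1 RPKM, and 5 of the 6 RNA processing genes past 2-fold higher lie left of it.

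The genes of category A with a COG number show which steps of RNA processing the category covers, as far as the functions of these groups are known. Their 21 genes were sorted by step after their folds had been seen, so that the order below is a description only. Around the branch point, U2 snRNP and its SF3 subcomplexes select the intron, and the 5 genes of that kind ranged from 0.00 to 0.83. The Prp11 group (COG5246) stood at 0.83 (0.60 to 1.05), the Hsh155 group (COG5181) at 0.74 (0.64 to 0.83) and the Cus1 group (COG5182) at 0.46 (0.22 to 0.69). The Prp9 group (COG5188) at 0.14 (-0.01 to 0.29) and the branch point binding protein group (COG5176) at 0.00 (-0.14 to 0.15) have intervals that hold 0. On the U1 side, which recognises the 5′ splice site, all 3 lay between -0.20 and -0.01. The intervals of HPODL_01119 (-0.27 to 0.25) and HPODL_02778 (-0.41 to 0.25) hold 0, and HPODL_02778 was below 10 CPM in both libraries. With library totals, which raise every log2 fold, all 3 lay between 0.02 and 0.21. The Prp8 group (COG5178), at the catalytic centre of the spliceosome, stood at -0.05 with TMM. Cleavage and polyadenylation factors (5 genes) ranged from -0.24 to 0.32, with the poly(A) polymerase group (COG5186) at 0.30. The capping enzyme group (COG5226) stood at -0.36 (-0.45 to -0.26). The highest of the 21 was the Rcl1 group (COG0430), which acts in ribosomal RNA processing, at 0.95 (0.84 to 1.06). Genes sorted under RNA turnover (5 genes) ranged from -0.64 to 0.45, with a median of -0.02 and 2 above 0. The top of that range was HPODL_02446 (COG5183), and whether it acts in RNA turnover was not checked. Also sorted there was the lowest of the 21, 1 of 2 genes of the Ccr4 deadenylase group (COG5239). That gene stood at -0.64 (-1.00 to -0.28). It had 110 reads in the caffeine-treated and 159 in the untreated library, below 10 CPM in both. The other gene of that group stood at 0.02 (-0.12 to 0.17). None of the 19 compared genes among the 21 reached 2-fold with TMM, which 7.12% of all compared genes passed upward and 5.27% downward. With library totals 2 of the 19 passed it upward.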

How the data were processed

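Stranded mRNA libraries from hot phenol extracts were sequenced as read pairs, per the labels' protocols. The aligner Bowtie2 is named in the submitters' processing notes. Not given in the sources used here: its version, the counter and its strand setting, and the build and annotation. The authors deposited raw read counts per gene and RPKM values. RLE and TMM tables and a quartile sheet were not used. Each of the 5408 locus tags was found in the RefSeq genes of assembly Hansenula_2, used for gene type and neighbours only.

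The whole count table was scaled with edgeR 4.0.16 (TMM) in R 4.3.3. Genes with at least 10 CPM of the plain library total in either library were compared. A count of 0 was set to 3 counts. An interval is the exact Clopper-Pearson one for the share of a gene's reads that came from the caffeine-treated library, converted to a fold. With 1 library per group edgeR was used for scaling only, and size rules of 1.5-, 2- and 4-fold stand in for a test. Alternatives were library totals, DESeq2 1.42.0 size factors, the deposited RPKM, other filters and 5 CPM added. The calculation was tested on simulated data. Named genes were those past 2-fold, the 10 highest and 10 lowest compared genes and the 6 with the highest mean RPKM; others named were chosen after their values were seen. The members and lists were chosen with earlier results of these data known. Functions of COG groups come from general knowledge.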

Additional observations from a re-analysis of the deposited data

How the results depend on the processing

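With DESeq2 size factors and without a filter, every count and median given for the set kept its size within 1.5 times or within its order-statistic interval (0.14 to 0.49). At least 2-fold higher were 13 genes with library totals, 12 with the deposited RPKM and 3 with a minimum of 50 CPM (26 genes left), in place of 6. At least 2-fold lower were 0 in place of 1 with library totals, RPKM, 50 CPM or 5 CPM added. At least 1.5-fold higher were 5 genes with 50 CPM, of 26 left. With 5 CPM added they were 10 of 56, in place of 17 of 56. The shares of all genes past 1.5-fold at these 2 settings are not given here. At least 1.5-fold lower was 1 in place of 2 with library totals, RPKM, 50 CPM or 5 CPM added. With at least 10 CPM required in both libraries, a filter chosen after seeing the data that left 46 genes, 10 were past 1.5-fold upward and 1 downward, and 5 and 0 past 2-fold. Over all genes 221 of 4552 were then past 2-fold upward and 213 downward. Below 66.1 RPKM, 9 of 24 RNA processing genes were past 1.5-fold upward, against 370 of 2138 of all genes kept by that filter. At or above that level these were 1 of 22 and 253 of 2414. The set thus had the larger share past 1.5-fold upward below that level and the smaller share at or above it. The median of 0.28 became 0.49 with library totals. Of all 4861 compared genes, 346 were at least 2-fold higher. They became 564 with library totals, 553 with RPKM and 244 with 5 CPM added, and 183 of 3233 with 50 CPM. Lower by as much were 256, which became 175, 178 and 210 at those settings, and 179 of 3233 with 50 CPM. Of the 24 genes named by the rule, 18 moved out of their counting interval with library totals and 18 with RPKM, both of which shift all folds upward, and 4 with 5 CPM added, which draws low counts towards 0. None of the 7 past 2-fold changed sign. No paired analysis was possible because each group has 1 library, and for the same reason no replicate could be left out. Counting error, with a median reach of 0.16 log2 units to either side over the 58 genes and at most 0.42, is the only error these files can show.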

Other observations

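Beside the 79 genes of category A alone, 4 genes carry that letter with another. Of 2 genes of the group that holds the U3 snoRNP protein Imp4 (COG2136), which acts in the maturation of ribosomal RNA, HPODL_03316 had 1032 reads in the caffeine-treated and 340 in the untreated library and a log2 fold of 1.49 (1.31 to 1.67). The other, HPODL_03620, had 1093 reads in the caffeine-treated and 619 in the untreated library and a log2 fold of 0.71 (0.57 to 0.86). Of 2 genes of the group of 5′ to 3′ exonucleases that holds Xrn1 and Rat1 (COG5049), HPODL_04821 stood at 0.51 (0.44 to 0.59) and HPODL_03406 at -0.20 (-0.23 to -0.17). HPODL_03406 was far more abundant, with 16299 reads in the caffeine-treated and 17387 in the untreated library. These 4 genes were picked by their category letters, and their folds have no replicate check.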
